A study of Abies pinsapo with 24 samples.

Results

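Spring and autumn needles of Spanish fir (Abies pinsapo) from the lower site, Yunquera, were compared across all expressed features. The members were 6 of the 24 libraries of the series: the 3 needle libraries of the spring harvest and the 3 of the autumn harvest at that site, chosen by their column names and labels alone. The series sampled needles and roots of adult firs aged 30 to 50 years in the Sierra de las Nieves, at Yunquera (1100 to 1200 m above sea level) and at Ronda (1700 to 1800 m). No treatment or genotype is given for the trees. Autumn needles were harvested in September 2022 and spring needles in May 2023, so season and calendar year cannot be told apart. Neither the age class of the needles nor pooling of shoots is given in the sources used here. The labels number 3 individuals per site and season, here called trees 1, 2 and 3, and values per library are given in that order (n = 3 libraries per season unless stated). Both directional and non-directional library kinds are named in the protocols, and neither is assigned to a sample.

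Needles of evergreen conifers stay on the tree through several seasons, and their photosynthetic capacity, carbohydrate stores and stress protection change over the year. In Mediterranean mountains September closes the dry summer, and May falls in the time of shoot growth. Abscisic acid, the main drought hormone, acts through receptors that block protein phosphatases of type 2C. DREB factors, named for the dehydration-responsive element they bind, switch on many protective genes in flowering plants. Gene symbols below are those of the best protein match in another species, given in the deposited table; they are not names established in fir. Roles are stated as known in model plants, mostly Arabidopsis thaliana.

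The 6 libraries held 16232407 to 23519757 counts each. Of the 51046 features in the table, 23426 had no count in any of them and 17954 passed the filter on low counts and were tested. Light harvesting and photosystem genes took 3.60 to 5.07% of counts in autumn and 4.79 to 6.11% in spring, against 0.0462 to 0.124% in Yunquera roots, so these markers went with the needle label. Features with a best match in filamentous fungi took 0.176 to 0.375% in autumn and 0.163 to 0.369% in spring, with autumn tree 2 and spring tree 1 the highest. Features present in certain trees and absent from the rest gave a further check of the tree numbers. Over 69 of them the autumn and spring needle libraries shared 89.1% of their calls for tree 2 and 87.9% for tree 3, but 44.4% for tree 1. With the roots numbered 1, the autumn needles numbered 1 shared 62.0% and the spring needles 59.2%. Libraries of different trees shared similar amounts in places. The autumn needles numbered 1 shared 62.5% with tree 3, and the autumn needles of tree 3 shared 61.6% with the roots numbered 1. The spring needles numbered 1 shared at most 53.3% with another tree, tree 2. Whether both needle libraries numbered 1 come from the same tree cannot be settled from the labels. Results are therefore also given with the tree as a block, and in 9 needle libraries of both sites with the tree as a block and both Yunquera needle libraries of tree 1 left out, called the 9 libraries without tree 1 below.

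Between the seasons, 860 features passed an adjusted p of 0.05, 430 higher and 430 lower in spring (quasi-likelihood test of edgeR, p-values adjusted by Benjamini-Hochberg over all 17954 features). That was 4.79% of the features tested, 2.40% in each direction, and 4161 features had an unadjusted p under 0.05. The median absolute log2 fold change of the 860 was 1.87, and 580 of them had a best protein match. With the tree as a block 34 features (0.189%) passed, 9 higher and 25 lower. In the 11 needle libraries of both sites whose transcripts went with their organ label, the same contrast called 1731 features (8.42%), of which 802 were among the 860. In the 9 libraries without tree 1, with the tree as a block, it called 3160 (15.9%), of which 786 were among the 860. The 2 libraries per season left at Yunquera without tree 1 gave 0 calls by edgeR on their own, with a smallest adjusted p of 0.0556 and 4224 features at an unadjusted p under 0.05. Without a single library the count ran from 45 without autumn tree 3 and 58 without spring tree 2 to 547 without spring tree 1. All 860 features kept their direction in every one of these fits.

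Genes were put into lists by patterns in the name of the best match, so features known only by a protein domain are in no list. Counts per list are a description, to be read against the 2.40% of all tested features called in each direction. AP2/ERF, DREB and RAV factors, glutathione transferases and chaperones other than small heat shock proteins had more members lower than higher in spring, while aquaporins, starch and sugar genes, class III peroxidases, cuticle genes and receptor-like kinases had more members higher. For comparison, 17 of 150 cell wall growth genes rose and 3 fell, 14 of 220 cell cycle genes rose and 1 fell, and 2 of 14 dehydrins and LEA proteins, which protect drying cells, fell. Features whose best match lies outside plants and filamentous fungi had 15 of 1405 members higher and 22 lower. Of the 41 lists used, 5 had no member past the threshold: phenylpropanoids and lignin (58 tested), small heat shock proteins (29), ribosomal proteins (242), flowering-phase and MADS factors (29), and pollen and reproductive tissue (14). The last of these is led by relatives of the birch pollen allergen Bet v 1. Its summed share was 0.176 to 0.485% in autumn and 0.0408 to 0.174% in spring. The groups nearly touched. The 95% counting intervals of autumn tree 3 (0.174 to 0.178%) and spring tree 1 (0.172 to 0.176%) overlapped. In whole tissue, fewer cells of a type and less RNA per cell cannot be told apart, here and in every result below.

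**Figure D1:**
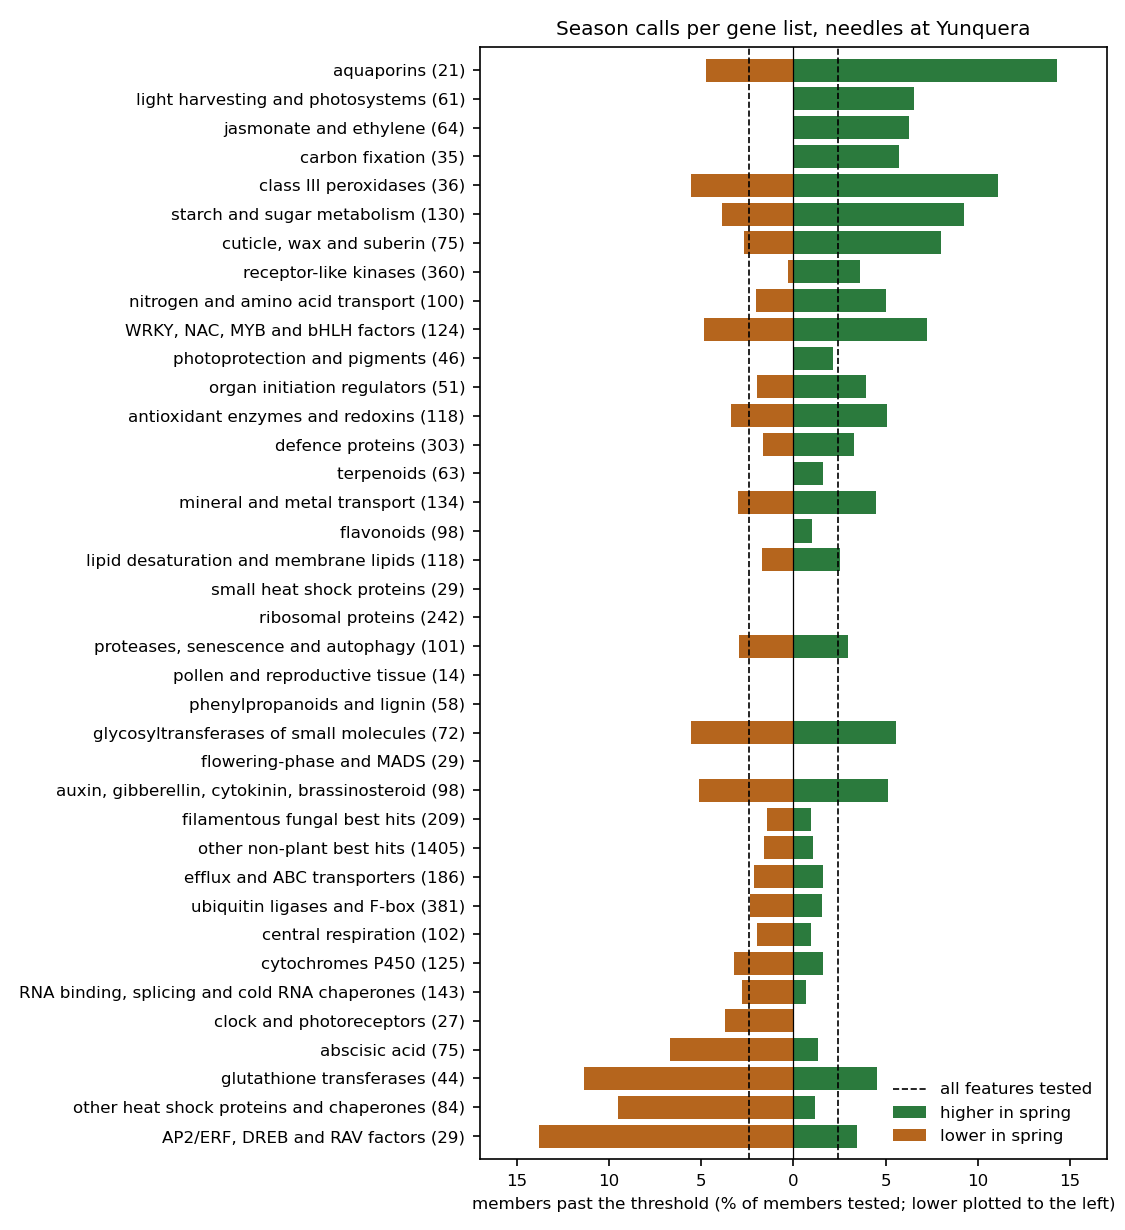
Share of tested members past the threshold in the gene lists other than wall growth, cell cycle and dehydrins, in percent, with members higher in spring to the right and lower to the left; the number tested is in brackets and the dashed lines mark 2.40%, the share of all features tested in each direction. Of the lists drawn, aquaporins reach furthest right with 3 of 21 members, and AP2/ERF, DREB and RAV factors furthest left with 4 of 29.

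Carbon fixation transcripts were higher in spring as a summed share, which abundant genes such as RBCS weigh on most, and in 2 single genes. Members of the carbon fixation list took 2.10 to 2.17% of counts in the 3 autumn libraries and 3.84 to 4.74% in the 3 spring libraries, without overlap. RBCS (ap_2297, 1 to 932) encodes the smaller subunit of Rubisco, the enzyme that fixes carbon dioxide. It stood at 1795, 1011 and 898 CPM (counts per library scaled to a common library size) in autumn and 15449, 11884 and 9151 CPM in spring. Its log2 fold change, spring minus autumn throughout, was 3.30 ± 0.38 (edgeR, adjusted p = 0.0138). The ± here and for every fold change below is an approximate standard error, derived from the test statistic. All spring libraries lay far above all autumn ones. BCA2 (Gene_3077), a chloroplast carbonic anhydrase, rose from 434, 409 and 547 to 1336, 2126 and 1777 CPM (1.91 ± 0.23, adjusted p = 0.0157). Of 35 carbon fixation genes tested these 2 passed and none fell, a share of 5.71%, near the 4.79% of all features called in either direction. The list's median log2 fold change was 0.40, against 0.03 over all features tested.

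NIFU2 (Gene_2802), a chloroplast scaffold for iron-sulfur clusters, had 848, 4185 and 1515 CPM in autumn and 22733, 26503 and 17885 CPM in spring (3.36 ± 0.64, adjusted p = 0.0428). The autumn libraries were uneven, tree 2 being highest, but none came near the spring libraries. Among the light harvesting and photosystem genes 4 of 61 passed, all higher, with modest changes: PSBY (ap_29350, 1 to 1326, 1.05 ± 0.18), CAB7 (Gene_25391, 1.00 ± 0.19) and LHCB5 (Gene_67441, 0.86 ± 0.17) were among them. CAB7, LHCB5 and the further genes of this paragraph were chosen after their values were seen. The chloroplast ATP synthase subunits ATPC1 (Gene_12228, 1.11 ± 0.22) and ATPD (Gene_4714, 1.11 ± 0.21) rose, as did thioredoxins F1 (Gene_3900, 1.42 ± 0.23) and F2 (Gene_4387, 1.45 ± 0.19), which switch on carbon fixation enzymes in the light. PGR5 (Gene_3093), needed for cyclic electron flow around photosystem I, moved the other way, from 1573, 2221 and 1854 CPM to 707, 1013 and 689 CPM (-1.23 ± 0.23, adjusted p = 0.0412). With the tree as a block, adjusted p over these 11 genes was 0.0506 to 0.161; in the 9 libraries without tree 1 it was under 0.05 for 10 of the 11.

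In the starch and sugar list 12 of 130 tested members were higher and 5 lower in spring, with a median of -0.09. The members called include enzymes of synthesis and of breakdown. ADP-glucose pyrophosphorylase makes the sugar donor for starch. Of its 8 features tested 4 rose and none fell, all large subunits: the AGPS1 matches Gene_29861 (2.47 ± 0.27), Gene_3470 (2.50 ± 0.31), Gene_75081 (1.87 ± 0.23) and AGPL4 (ap_73588, 1 to 2985, 1.44 ± 0.22). The first went from 28.2, 30.3 and 26.9 CPM in autumn to 205, 162 and 104 CPM in spring, the lowest spring value being above 3 times the highest autumn one. GBSS1 (Gene_39210), the granule-bound synthase of amylose, had 81.9, 96.0 and 51.5 CPM in autumn and 441, 377 and 356 CPM in spring (2.36 ± 0.26, adjusted p = 0.0127). The other 3 starch synthases and both branching enzymes tested did not pass. STP-1 (Gene_4533), a plastid glucan phosphorylase, a type that can degrade glucan chains, rose (1.49 ± 0.18), alone of 4 tested. These 6 genes were picked with their values in view.

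Of 9 alpha- and beta-amylases tested 2 fell and none rose. The alpha-amylase AMY3 (ap_33391, 1 to 1827) fell from 62.7, 109 and 112 CPM to 14.5, 15.1 and 17.5 CPM (-2.59 ± 0.27, adjusted p = 0.0118). The beta-amylase BAM1 (ap_31763, 1 to 2851) fell from 21.1, 14.4 and 13.7 CPM to 2.22, 2.28 and 1.52 CPM (-3.02 ± 0.32, adjusted p = 0.0127). Both enzymes degrade starch in the chloroplast, and their spring libraries were all below their autumn libraries. SUS4 (Gene_39876), a sucrose synthase that cleaves sucrose, fell from 17.9 to 3.58 CPM on average (-2.32 ± 0.23). PCK1 (Gene_33450), phosphoenolpyruvate carboxykinase, a first step from organic acids towards sugar, fell from 100.2, 45.7 and 59.6 CPM to 7.78, 9.13 and 5.97 CPM (-3.17 ± 0.36, adjusted p = 0.0135). With the tree as a block, none of these 10 genes passed (adjusted p 0.0515 to 0.0990), and in the 9 libraries without tree 1 all 10 did.

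At Ronda, levels of GBSS1 and PCK1 were compared on a scaling over the 11 needle libraries. GBSS1 stood at 576, 732 and 539.6 CPM in autumn needles of Ronda and 452 and 931 CPM in the 2 spring libraries used there, so that the autumn needles of Yunquera were the low group. PCK1 stood at 5.52, 4.70 and 5.86 CPM in autumn and 13.5 and 4.21 CPM in spring at Ronda, and the autumn needles of Yunquera were the high group. The log2 difference between the sites' season changes was 2.19 ± 0.45 for GBSS1 and -3.90 ± 0.64 for PCK1, yet neither passed the test of that difference (adjusted p = 0.334 and 0.184, edgeR, 11 needle libraries).

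**Figure D2:**
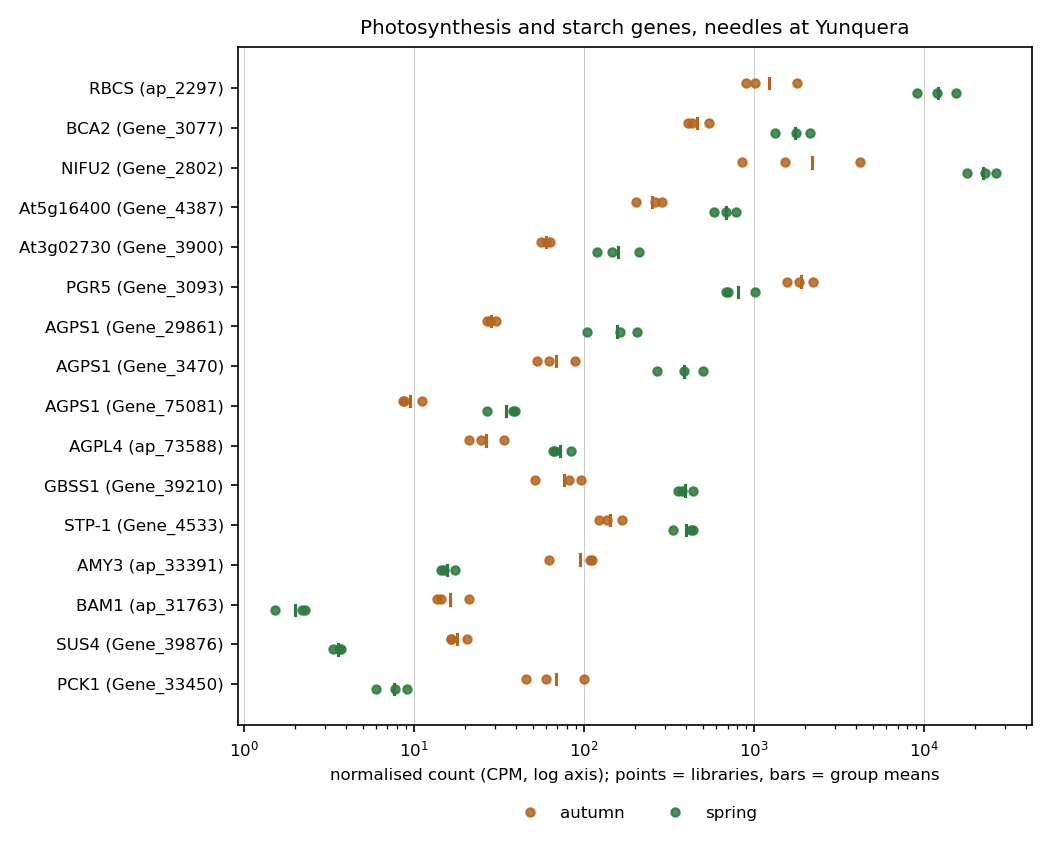
Normalised counts (CPM, log axis) of photosynthesis and starch genes in the 3 autumn and 3 spring needle libraries of Yunquera; points are libraries and vertical bars are group means. In none of the 16 genes do the seasons overlap, but this is part of how they were chosen. RBCS runs from 1235 CPM on average in autumn to 12161 CPM in spring.

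Galactinol synthases make the galactinol from which raffinose sugars, protectants against cold and drying, are built. They did not move as one. GOLS1 copies Gene_3136 and Gene_3454 were abundant and rose, from 1537, 1549 and 1504 to 3678, 2888 and 3403 CPM (1.12 ± 0.16) and from 1489, 1323 and 1366 to 3269, 2702 and 2502 CPM (1.02 ± 0.17). GOLS2 (Gene_10499), chosen after its values were seen like the next 3, was nearly silent in autumn at 2.70, 1.01 and 2.41 CPM and reached 8.61, 89.3 and 116 CPM in spring (5.12 ± 1.03, adjusted p = 0.0476). Tree 1 was far below the others in spring. RFS (ap_60466, 6 to 1730), a raffinose synthase, rose (1.63 ± 0.31), and GOLS4 (Gene_73279) fell from 24.6 to 5.56 CPM (-2.14 ± 0.39). A further GOLS1 copy (ap_34676, 141 to 1505) had 2.52, 0.846 and 1.52 CPM in autumn and 4.54, 41.6 and 36.5 CPM in spring but missed the threshold (adjusted p = 0.0604). Near-identical copies can share reads, so values of single copies are uncertain. With the tree as a block the adjusted p of the 5 called genes was 0.0861 to 0.175, and in the 9 libraries without tree 1 all 5 passed.

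Of 5 COR413 cold-regulated membrane proteins tested, 3 were lower in spring and none higher; 2 further matches of COR413PM2 did not pass. COR413PM2 (Gene_5317, the whole of reference sequence ap_4092, bases 1 to 1120, plus strand), a plasma membrane protein induced by cold in Arabidopsis, had the smallest adjusted p of all features. It stood at 224, 213 and 209 CPM in autumn and 17.9, 19.9 and 18.1 CPM in spring, 11.6-fold lower (-3.53 ± 0.13, adjusted p = 0.00146). Replicates were close to each other in both seasons. Its relatives in the chloroplast inner envelope, COR413IM1, fell in both copies, Gene_5089 from 1753, 1807 and 1915 to 496, 467 and 319 CPM (-2.09 ± 0.21) and Gene_34982 from 53.1 to 7.11 CPM (-2.90 ± 0.25). The temperature-induced lipocalin TIL (Gene_16778), a membrane lipid carrier, fell from 1503, 1416 and 1462 to 339, 381 and 216 CPM (-2.23 ± 0.24). RCI2B (ap_30937, 1 to 831), a small hydrophobic protein of cold-treated tissue, fell (-2.96 ± 0.34), and so did 2 copies of annexin D2, a calcium-dependent membrane-binding protein (Gene_8875, -2.61 ± 0.26; Gene_70799, -2.96 ± 0.33). The other 3 of 5 annexins tested lay above 0 and did not pass.

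All 7 of these genes were chosen with their values already seen, so their common direction is part of the choice. At Ronda all 7 were lower in spring too and passed there (adjusted p 0.0248 to 0.0447, 5 libraries). COR413PM2 fell there by a log2 fold change of -3.04 ± 0.38. With the tree as a block 1 of the 7, COR413PM2, passed at Yunquera (adjusted p 0.0453 to 0.0740).

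Among AP2/ERF, DREB and RAV factors 4 of 29 tested members fell and 1 rose in spring, with a list median of -0.03. RAV2 (Gene_52918), a repressor with an AP2 and a B3 domain, went from 574, 537 and 602 CPM in autumn to 12.4, 11.4 and 3.53 CPM in spring, 62.7-fold lower (-5.97 ± 0.53, adjusted p = 0.00815). This was the largest fall among the genes named by the rule. DREB2A (Gene_75725), which activates drought and heat genes in Arabidopsis, fell from 24.5, 21.7 and 29.8 to 3.97, 3.61 and 3.96 CPM (-2.72 ± 0.22, adjusted p = 0.00662), and DREB2B (Gene_30132) from 4.44, 4.51 and 7.13 to 1.34, 0.639 and 0.597 CPM (-2.63 ± 0.49). The riser of the list was ERF003 (Gene_69823), at 0.300, 0.113 and 0 CPM in autumn, about the level that 3 counts give, and 7.53, 3.47 and 7.43 CPM in spring (5.44 ± 1.04).

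Abscisic acid genes were mostly lower among those called: 5 of 75 tested members fell and 1 rose, with a list median of -0.05. The fallers include 3 protein phosphatases of type 2C, a large class in which certain members hold abscisic acid signalling in check. Which members these matches resemble was not examined. By name, 49 features of this class were tested, of which 4 fell and none rose. The match of rice phosphatase Os01g0295700 (Gene_15815) fell from 415, 499 and 483 to 147, 179.7 and 117 CPM (-1.65 ± 0.20), Gene_14777 from 161 to 56.4 CPM (-1.52 ± 0.20) and Gene_468 from 446 to 164 CPM (-1.44 ± 0.19). XERICO and P85 were named from other lists, ubiquitin ligases and senescence proteins, and are not among these fallers. XERICO (Gene_4586), a RING protein that raises abscisic acid in Arabidopsis, fell from 34.5, 51.8 and 38.7 to 2.06, 4.20 and 4.34 CPM (-3.56 ± 0.37, adjusted p = 0.0118). P85 (Gene_41821), a protein of senescing and drying tissue, fell (-2.39 ± 0.22). NCED1 (Gene_69197), of the family that cleaves carotenoids in the committed step of abscisic acid synthesis, moved the other way, from 722, 437 and 595 CPM to 2361, 2258 and 1522 CPM (1.81 ± 0.27, adjusted p = 0.0246). Over the 10 genes of this and the preceding paragraph, XERICO and P85 included, the blocked adjusted p was 0.0506 to 0.136. All 10 passed in the 9 libraries without tree 1.

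**Figure D3:**
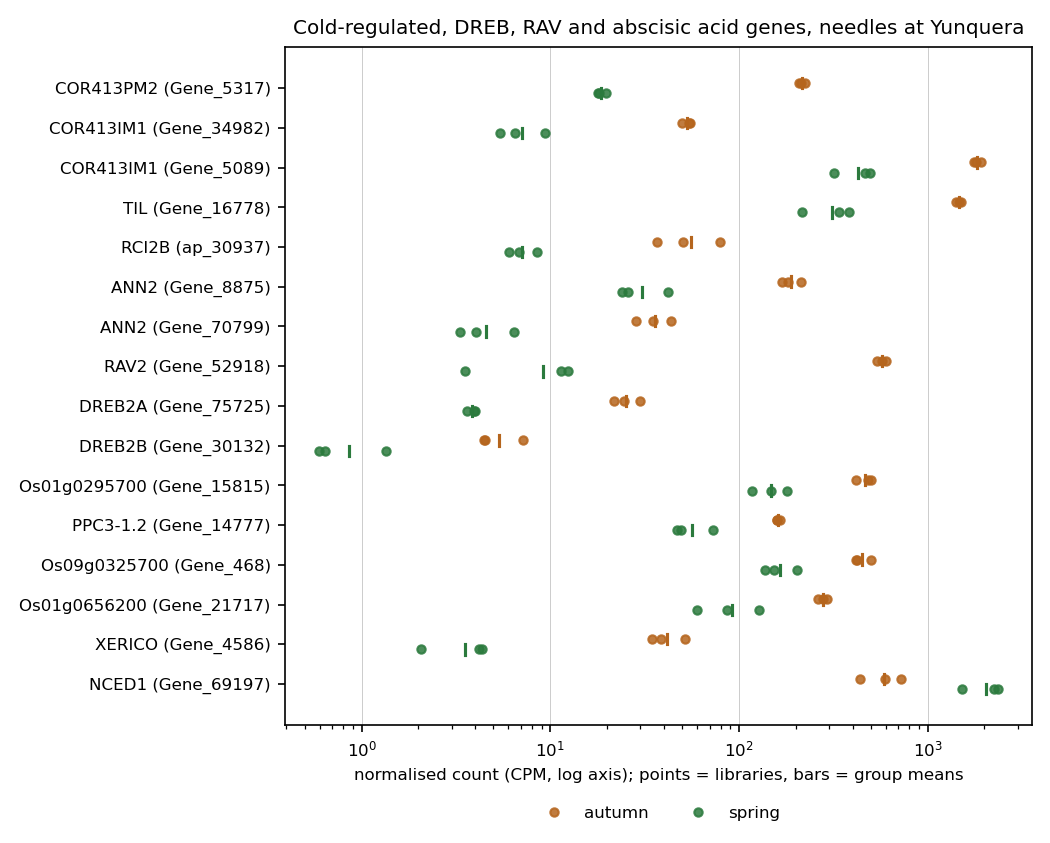
Normalised counts (CPM, log axis) of cold-regulated, DREB, RAV and abscisic acid genes in the 3 autumn and 3 spring needle libraries of Yunquera; points are libraries and vertical bars are group means. The seasons do not overlap in any of the 16 genes, which is part of how they were chosen. NCED1 is the 1 gene with the higher values in spring, and RAV2 shows the widest gap, 571 against 9.11 CPM on average.

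Ascorbate and glutathione genes were called in both directions. MDAR5 (Gene_31739), a monodehydroascorbate reductase that recycles oxidised ascorbate in chloroplasts and mitochondria, fell from 281, 226 and 249 CPM to 17.7, 25.3 and 30.1 CPM (-3.37 ± 0.24, adjusted p = 0.00497). The chloroplast glutathione reductase (Gene_28707) fell from 356, 382 and 384 to 168, 177 and 157 CPM (-1.16 ± 0.12). Of 44 glutathione transferases, which couple glutathione to toxic compounds, 5 fell and 2 rose. GSTF9 fell in both copies named, Gene_5911 from 180.2, 165 and 189 to 21.1, 27.7 and 15.5 CPM (-3.06 ± 0.24) and Gene_71072 from 102 to 9.97 CPM (-3.35 ± 0.45). By contrast VTC2, GDP-L-galactose phosphorylase, the committed step of ascorbate synthesis, rose in all 3 copies called (Gene_13529, 1.54 ± 0.16; ap_3810, 56 to 3078, 1.49 ± 0.19; Gene_67327, 1.07 ± 0.15). The first went from 234, 271 and 271 CPM to 649, 756 and 847 CPM. The cytosolic ascorbate peroxidase APX2 (Gene_4612) rose too (1.58 ± 0.21); VTC2 and APX2 were chosen after their values were seen.

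Class III peroxidases, secreted enzymes of wall and defence chemistry, were called in 6 of 36 tested members, 4 higher and 2 lower. PER43 (Gene_20354) rose from 9.12, 4.12 and 8.34 CPM to 77.8, 48.3 and 113 CPM (3.47 ± 0.45, adjusted p = 0.0197), and PER17 (Gene_22531) fell from 57.0, 82.6 and 117 CPM to 13.8, 17.9 and 23.0 CPM (-2.23 ± 0.33). PER43 also passed with the tree as a block (adjusted p = 0.0453), the only 1 of the 10 redox and peroxidase genes described to do so. All 10 passed in the 9 libraries without tree 1.

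Among chaperones other than small heat shock proteins, 8 of 84 tested members fell and 1 rose in spring, with a list median of -0.21. The co-chaperones BAG4 (ap_15564, 1 to 701) and BAG1 (Gene_6640), which bind Hsp70, fell from 163, 135 and 133 to 26.2, 29.2 and 35.6 CPM (-2.24 ± 0.18) and from 482, 379 and 391 to 95.1, 118 and 158 CPM (-1.75 ± 0.23). The other 8 of 10 BAG proteins tested did not pass. The Hsp90 genes HSP81-1 (Gene_2890, -0.93 ± 0.14) and HSP90-5 of the chloroplast (Gene_69931, -0.72 ± 0.14) showed smaller falls. Polyubiquitin UBI11 (Gene_23929), a precursor of ubiquitin, fell from 148, 182 and 285 to 46.9, 41.4 and 31.1 CPM (-2.36 ± 0.30). In 3 more copies that fell the log2 fold change was -1.96, -1.77 and -1.82, and the remaining 28 of 32 polyubiquitin features tested did not pass. The Hsp90 genes and these 3 copies were taken up after their values were known. Polyubiquitin copies share sequence, so reads may be split between them. ATG8F (Gene_47), a protein of the autophagy membrane, rose from 18.3 to 44.9 CPM.

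None of the 9 genes of this group described passed with the tree as a block (adjusted p 0.0537 to 0.150), and all 9 passed in the 9 libraries without tree 1. At Ronda 9 of the 9 had the same sign and 0 passed (adjusted p 0.185 and above). BAG4, for example, changed by -0.75 ± 0.34 there, against -2.24 ± 0.18 at Yunquera. ATJ8 (Gene_4865), a chaperone named by the rule from the same list, is not among these 9. It fell at Yunquera (-1.27 ± 0.21) and had the opposite sign at Ronda (0.77 ± 0.19, adjusted p = 0.102, edgeR).

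Transcription factors of several families changed. In the WRKY, NAC, MYB and bHLH list 9 of 124 members were higher and 6 lower. NAC068 (Gene_76817) fell from 60.1, 70.2 and 95.4 to 6.19, 5.98 and 5.05 CPM (-3.71 ± 0.24, adjusted p = 0.00497), and NAC056 (Gene_78024) from 99.9, 125 and 128 to 12.1, 9.95 and 6.51 CPM (-3.63 ± 0.28, adjusted p = 0.00569). NAC factors govern ageing, stress and wall formation in model plants. LBD40 (Gene_30554), of the lateral organ boundaries family, fell from 271, 384 and 388 to 10.9, 18.1 and 10.7 CPM (-4.71 ± 0.31), and this call held with the tree as a block (adjusted p = 0.0453). TCP4 (Gene_22151, 1.23 ± 0.23) and TCP2 (Gene_67514, 2.17 ± 0.38), relatives of factors that set leaf shape in Arabidopsis, rose. ELF3 (Gene_31887), part of the evening complex of the circadian clock, fell from 142, 172 and 175 to 50.5, 37.9 and 52.9 CPM (-1.79 ± 0.18). It was the only 1 of 27 clock and photoreceptor genes to pass. CET1 (ap_13976, 2 to 1203), of the CENTRORADIALIS family that delays flowering in other plants and chosen after its values were seen, fell from 226, 149 and 203 to 29.7, 14.7 and 16.3 CPM (-3.25 ± 0.34) and passed with the block (adjusted p = 0.0453).

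Of 64 jasmonate and ethylene genes 4 rose and none fell, with a list median of 0.14. ACC oxidases carry out the last step of ethylene synthesis, and 2 of 3 tested rose, both matches of MAO1B: Gene_4282 went from 149.6, 270.1 and 125 to 1587, 1284 and 907 CPM (2.79 ± 0.37, adjusted p = 0.0202) and Gene_34037 from 18.9 to 73.7 CPM (1.96 ± 0.35). TIFY6B (Gene_21467), a repressor of jasmonate responses, rose by 1.13 ± 0.21, and AOC (Gene_5970), a step of jasmonate synthesis, by 2.01 ± 0.40, the latter missing the threshold in the 9 libraries without tree 1 (adjusted p = 0.0765). Among auxin, gibberellin, cytokinin and brassinosteroid genes 5 of 98 rose and 5 fell. The growth-linked auxin gene SAUR50 (Gene_67982, -3.49 ± 0.38) and the gibberellin-regulated GASA2 (Gene_33154, -5.13 ± 1.04) fell, while the gibberellin-regulated At2g39540 (ap_7840, 8 to 899, 5.31 ± 0.85) rose. D14 (Gene_43355), the strigolactone receptor of rice, went from 0.660, 0.902 and 0.630 to 17.6, 8.81 and 27.0 CPM (4.59 ± 0.51). AOC and D14 were chosen after their values were seen. Of the 15 regulator and hormone genes described, 2 passed with the tree as a block and 14 in the 9 libraries without tree 1.

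Of 21 aquaporins, channels for water and small solutes, 3 were higher and 1 lower in spring, and the list's median log2 fold change was 1.04. PIP2-8 (Gene_3516) and PIP2-4 (Gene_14482), plasma membrane water channels, went from 197, 281 and 243 to 786, 565 and 606 CPM (1.44 ± 0.20) and from 49.6, 82.4 and 70.6 to 221, 173 and 143 CPM (1.41 ± 0.25). Both also rose at Ronda, by 1.19 (adjusted p = 0.0346) and 1.14 (adjusted p = 0.0412). NIP1-1 (Gene_9016), a channel of another subfamily, fell (-1.42 ± 0.17).

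Nitrogen transporters were called in 7 of 100 members, 5 higher and 2 lower. The ammonium transporter AMT3-1 (Gene_10303) rose from 23.3, 25.6 and 29.5 to 78.8, 73.9 and 70.8 CPM (1.51 ± 0.15, adjusted p = 0.0116), and both fallers were NPF6.4 copies of the nitrate and peptide transporter family (Gene_15893, -2.96 ± 0.43; Gene_12742, -3.60 ± 0.54, chosen after its values were seen). Metallothioneins, small cysteine-rich proteins that bind metals, were called higher in 2 of 9 tested and lower in none. EMB30 (ap_2305, 1 to 1313) went from 2439, 1085 and 1213 to 7123, 6996 and 7545 CPM (2.19 ± 0.35) and MT1A (ap_7545, 229 to 969) from 3129, 2136 and 1945 to 6238, 8249 and 6903 CPM (1.57 ± 0.25). Copper proteins were called in both directions: the copper chaperone ATX1 (ap_2579, 1 to 2558) rose from 63.7, 49.4 and 30.9 to 171, 268 and 364 CPM (2.48 ± 0.38), and the copper transporter COPT3 (Gene_20671) fell from 647, 503 and 599 to 200.2, 189 and 169.8 CPM (-1.64 ± 0.15, adjusted p = 0.00947). Ferritin FRI3 (Gene_4133), the iron store of plastids, fell (-1.10 ± 0.15). None of the 11 transport and metal genes described passed with the tree as a block (adjusted p 0.0513 to 0.135), and all 11 passed in the 9 libraries without tree 1.

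Lipid genes were called in both directions, while the terpene genes described here rose. PT5 (Gene_27523), a conifer alpha-farnesene synthase, rose from 39.8, 30.9 and 25.2 to 161, 159 and 162 CPM (2.33 ± 0.20, adjusted p = 0.00725), and was the only 1 of the 63 members of the terpenoid list to pass. Terpinolene synthase ag9 (Gene_59922), first described in grand fir, was not matched by that list's patterns; chosen after its values were seen, it rose from 12.2, 12.8 and 33.7 to 143, 426 and 384 CPM (4.02 ± 0.62). The cytochromes P450 CYP76C4 (Gene_23691, 2.95 ± 0.29) and CYP78A4 (Gene_18691, -2.98 ± 0.35) moved oppositely, and both calls held with the tree as a block. In the cuticle, wax and suberin list 6 of 75 members rose and 2 fell. Of 33 features matched to GDSL lipases by name 3 rose and none fell, among them ap_12314, 1320 to 2579 (2.40 ± 0.33) and Gene_12683 (2.52 ± 0.23). None of the 18 features with an annotated GDSL domain was called. The acyltransferase LPAT5 (Gene_22765) fell from 108, 149.7 and 205 to 12.2, 13.7 and 17.1 CPM (-3.43 ± 0.29, blocked adjusted p = 0.0453). CCL9, a CoA ligase, fell in both copies, Gene_78709 from 311, 263 and 398 to 14.7, 18.0 and 16.9 CPM (-4.29 ± 0.21, adjusted p = 0.00360) and ap_76111, 1 to 1537 (-4.30 ± 0.34); both passed with the block.

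S-adenosylmethionine is the methyl donor of the cell and, once decarboxylated, the source of polyamines. The synthetases METK2 (Gene_2819) and SAMS2 (Gene_7389) fell, the first from 2831, 2527 and 3353 to 895, 1137 and 1344 CPM (-1.37 ± 0.22) and the second by -1.53 ± 0.20. The decarboxylase SAMDC (Gene_3205) rose from 1017 to 2712 CPM on average (1.41 ± 0.17), and spermidine synthase SPDSYN1 (Gene_6660) rose by 1.66 ± 0.26. SAMS2 and SPDSYN1 were chosen after their values were seen. Of the 13 terpene, P450, lipid and methyl-cycle genes described, 5 passed with the tree as a block and all 13 in the 9 libraries without tree 1.

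Defence genes were called in 15 of 303 tested members, 10 higher and 5 lower, close to the share over all features. By best-match name, 5 of 29 lectins and agglutinins tested, receptor kinases aside, rose and none fell. By domain, 4 of 17 jacalin-like, 1 of 20 mannose-binding and 0 of 15 legume lectin features were called. Jacalin-related lectin JAL3 (Gene_4343) went from 299.7, 326 and 374 to 1369, 886 and 1095 CPM (1.74 ± 0.21) and the agglutinin LECA (Gene_3033) from 2362, 2984 and 1735 to 11259, 9732 and 4859.9 CPM (1.87 ± 0.38). A conifer defensin, Def1 (ap_2618, 1 to 1415), a small antimicrobial protein, fell from 3719, 1756 and 1862 to 459.5, 383 and 449 CPM (-2.51 ± 0.34, adjusted p = 0.0202). Autumn tree 1 was highest and every autumn library exceeded every spring one. Features with best matches in filamentous fungi had 2 of 209 members higher and 3 lower. Their share was highest in autumn tree 2 and spring tree 1, and their part in the defence calls was not tested. Receptor-like kinases, sensors at the cell surface, had 13 of 360 members higher and 1 lower. HSL1 (Gene_25692) rose from 10.8 to 30.5 CPM and At1g80640 (Gene_67354) from 2.10 to 16.2 CPM (2.94 ± 0.45). None of the 5 defence and receptor genes described passed with the block (adjusted p 0.0673 to 0.128), and all 5 passed in the 9 libraries without tree 1.

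Large changes were not limited to genes of known function. Of the 860 called features 280 had no best match, 124 higher and 156 lower. Among them Gene_3717 fell from 1486, 2478 and 2029 CPM to 0.464, 2.65 and 0.488 CPM (-10.67 ± 0.91, adjusted p = 0.00725), and Gene_6714 rose from 5.16, 7.95 and 2.83 CPM to 186, 233 and 225 CPM (5.34 ± 0.42, adjusted p = 0.00569). Both passed with the tree as a block as well. The table gives neither a match nor a domain for them, and both were picked with their values in view.

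The naming rule took 103 genes in all, 49 higher and 54 lower in spring, from 661 candidates. Seasons without overlap were a condition for a candidate. With the tree as a block 7 of the 103 passed, in 11 needle libraries 99, and in the 9 libraries without tree 1 all 103. DESeq2, another count test, also called all 103 on the 6 libraries. It called all 860 features of the main test there, so this was no separate check of the 103. The 9 libraries without tree 1 include Yunquera libraries that the main test used. That fit called 786 of the 860 and 15.9% of all features it tested, so it was not an independent check either.

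Needles of Ronda, sampled in the same months, gave a check in other trees. One library was left out there, replicate 3 of those labelled spring needles, because its transcripts went with roots; 3 autumn and 2 spring libraries remained. On their own they called 601 of 18394 features (3.27%). Of the 430 features higher in spring at Yunquera, 397 were tested at Ronda and 377 of these (95.0%) had the same sign, with a median log2 fold change of 1.26. The 430 lower features gave 409 of 427 (95.8%) and a median of -1.05. Over all features tested the same sign was found for 69.3% of those above 0 and 71.6% of those below 0. In both directions together 205 of the 860 also passed at Ronda, all with the same sign. Of the 103 named genes 102 were tested at Ronda, 96 had the same sign and 29 passed. The exceptions in sign were PCK1, a copy of GOLS1 (Gene_3454), the glucanase At2g27500 (Gene_227), the chaperone ATJ8 (Gene_4865), ferritin FRI3 and Peroxidase 5 (Gene_18206), and none of these 6 passed there. The difference between the season changes at the 2 sites was tested directly in the 11 libraries and passed for 0 of 20560 features (percentage called: 0; edgeR), with 1369 at an unadjusted p under 0.05. DESeq2 called 189 for the same contrast.

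**Figure D4:**
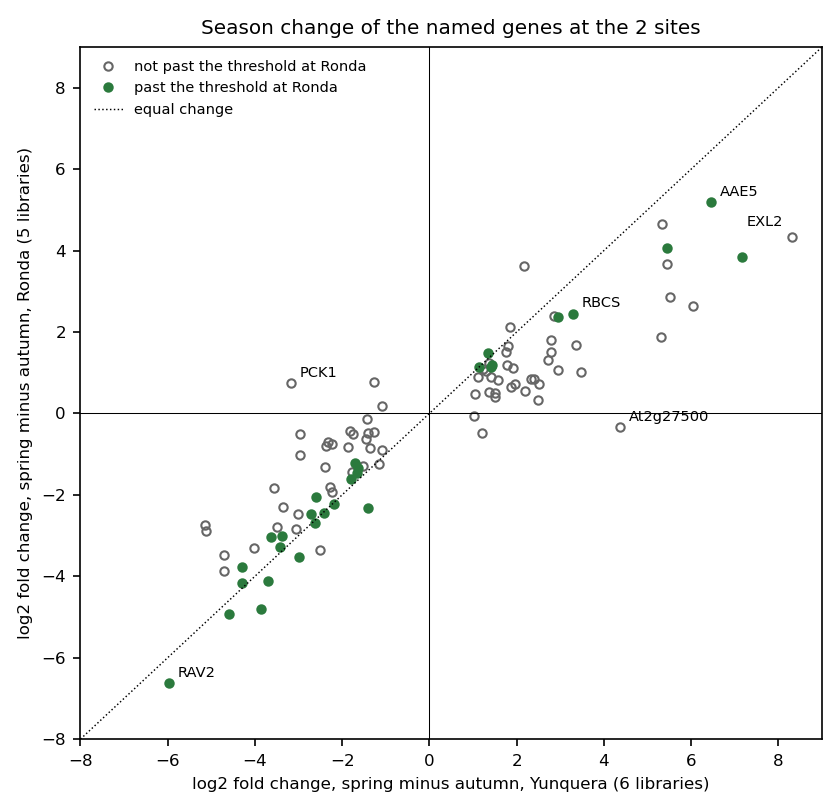
Season change (log2 fold change, spring minus autumn) of the 102 named genes tested at both sites, Yunquera on the horizontal and Ronda on the vertical axis; filled points passed the threshold at Ronda, and the dotted line marks equal change. In all, 96 points share their sign, and RAV2 is the lowest at both sites (-5.97 and -6.62).

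The season change was also set beside that in roots of the same site and seasons. Needles and roots were extracted by different methods, so organ and extraction method cannot be told apart. The difference between the season change in needles and that in roots passed for 27 of 19120 features (0.141%), 15 above and 12 below 0. Of these 18 had a best match. In 21 the signs in needles and roots were opposite, but only 7 of the 27 were called in both organs separately. Among those 7, COPT3 and the GDSL match Gene_81854 moved the same way in both organs. CDSP32, for example, has opposite signs but was flat in needles (0.06, adjusted p = 0.908, edgeR). RBCS went up in needles (3.30) and from 7.52 to 1.36 CPM on average in roots (-2.48, adjusted p = 0.0504, edgeR). The difference was 5.80 ± 0.92 (adjusted p = 0.0470). GOLS2, which rose in needles, fell in roots from 191 to 0.623 CPM (-8.25), a difference of 13.39 ± 1.40 (adjusted p = 0.00760). MDAR5 and COR413PM2 fell in needles, while their root log2 fold changes were -0.27 (adjusted p = 0.558) and -0.22 (adjusted p = 0.765). COPT3 fell in both organs (difference 6.49 ± 0.97, adjusted p = 0.0324). In roots it was low throughout, at 7.40, 1.84 and 8.07 CPM in autumn and 0, 0.0502 and 0 CPM in spring. Its root log2 fold change of -8.11 therefore rests on spring values at or near 0. Without both needle libraries of tree 1 the test of the difference passed for 9 features, and with the tree as a block for 7.

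**Figure D5:**
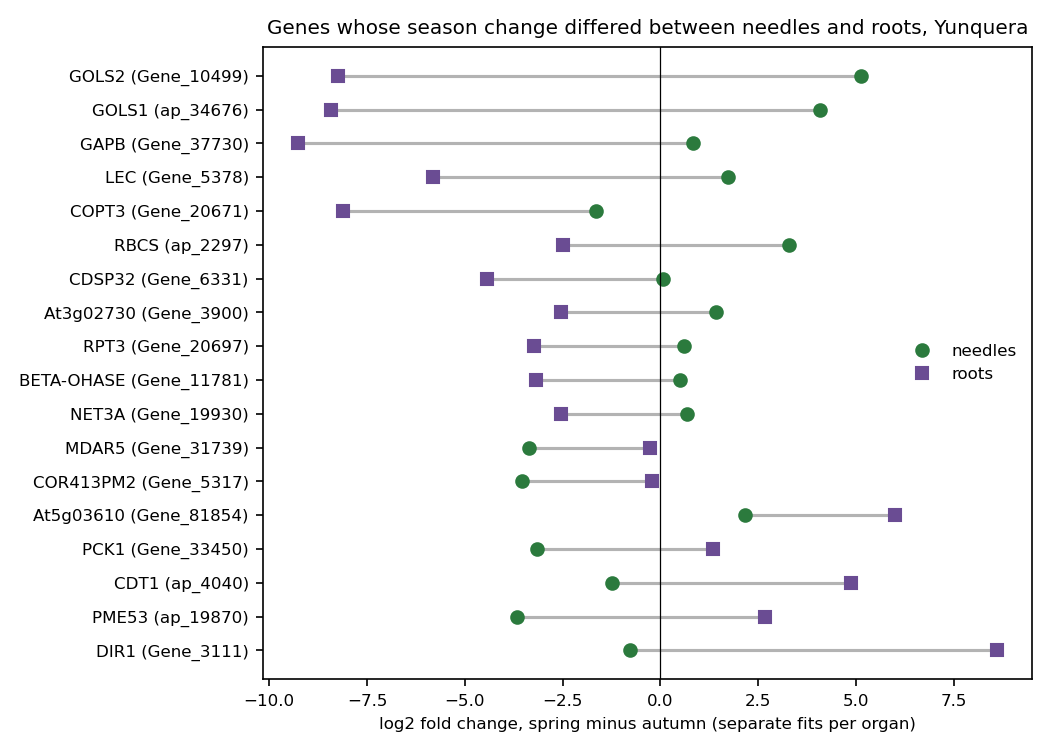
Season change (log2 fold change, spring minus autumn) in needles (circles) and roots (squares) of Yunquera for the 18 features with a best match whose change differed between the organs, each organ fitted separately. GOLS2 lies at 5.12 in needles and -8.25 in roots, while PCK1 lies at -3.17 in needles and 1.35 in roots.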

How the data were processed

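RNA was sequenced by the authors from needles and roots; the authors deposited a table of unnormalised counts for each feature of a fir transcript reference, with best protein matches and domains. Per the submitters' processing notes, CASAVA, HISAT2 and featureCounts were used; versions, settings, strandedness and build are not stated in the sources used here. Reads that match several copies, or overlapping features, may therefore be split or lost. Columns were assigned to organ, site, season and individual from their names and the sample labels.

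From the counts, edgeR 4.0.16 in R 4.3.3 computed TMM-scaled CPM and quasi-likelihood tests of spring minus autumn. The filter was filterByExpr with a minimum count of 10 in a library and 15 in all. P-values were adjusted by Benjamini-Hochberg, with a threshold of 0.05. Each standard error was the absolute log2 fold change divided by the square root of the F statistic of its quasi-likelihood test. DESeq2 1.42.0, RLE scaling, no filter, all 12 needle libraries as labelled, a replicate block and leaving out libraries were alternatives. The differences between sites and between organs were tested as interaction terms. The fitting steps were checked on simulated counts with known changes. Depth sets a floor: 3 counts correspond to 0.128 to 0.185 CPM per library, for counting error only.

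The labels use the same individual numbers 1 to 3 in both seasons. The main test treated the 6 libraries as independent, so its p-values measure the spread between libraries within a season. The calls shared across seasons, 89.1% for tree 2 and 87.9% for tree 3, went with the numbers. That pairing is left out of the main test. The sample protocol speaks of 6 trees harvested in both seasons and the series design of individuals selected at random on each occasion, so equal numbers were taken as trees only in the block. Deviations of equally numbered libraries from their season means correlated at -0.33, 0.27 and 0.41 for trees 1, 2 and 3. Unequally numbered libraries ran from -0.62 (autumn 2 with spring 3) to 0.44 (autumn 2 with spring 1), so these correlations do not settle the pairing.

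Genes were named by a rule. Candidates were called, changed by at least 1 on the log2 scale, averaged at least 5 CPM in the higher season and had seasons that did not overlap. From each list the 3 with the lowest adjusted p were taken, then the 10 largest rises, the 10 largest falls and the 10 most abundant; wall, cell cycle, dehydrin and other-organism lists were set aside. Genes outside the rule are marked where they appear. Smaller groups were counted by best-match name with the values in view. The comparison, the lists and the naming rule were chosen with earlier results of these data known.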

Additional observations from a re-analysis of the deposited data

Results flagged for a closer look

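The season change at Yunquera differed between needles and roots for 27 features in the test of the difference itself (edgeR interaction term, 6 needle and 6 root libraries). Values follow for 9 of them, and each difference is the log2 season change in needles minus that in roots. GOLS2 (Gene_10499) had a difference of 13.39 and the GOLS1 copy ap_34676, 141 to 1505 one of 12.52; in roots both were high in autumn and fell. COPT3 (Gene_20671) had 6.49, from a root change between low levels, 5.77 and 0.0167 CPM on average. RBCS (ap_2297, 1 to 932) had 5.80 and thioredoxin F1 (Gene_3900) 3.96. Both were low in roots, with autumn means of 7.52 and 2.72 CPM. The unannotated feature Gene_4029 had 4.19, with 2.58 in needles and -1.59 in roots. MDAR5 (Gene_31739) had -3.08, COR413PM2 (Gene_5317) -3.29 and PCK1 (Gene_33450) -4.49. The needles behind these values include the libraries numbered 1, whose tree identity is in doubt. Needles and roots were extracted by different methods, and the part of that in the differences was not tested.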

How the results depend on the processing

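The count for season in needles at Yunquera, 860, became 2669 with DESeq2, 543 without a filter on low counts, 1731 in 11 needle libraries, 34 with the tree number as a replicate block, 3160 with the block and without both needle libraries of tree 1, and 0 without those libraries at Yunquera alone. Leaving out single libraries gave 45 to 547. RLE scaling gave 864 and all 12 needle libraries as labelled 825. No called feature changed direction under any of these. The season by site count of 0 became 189 with DESeq2 and 0 to 2 without single libraries. The season by organ count of 27 became 723 with DESeq2, 7 with the block, 9 without both needle libraries of tree 1, and 3 to 10 without single libraries. Of the 103 named genes, 102 were called with RLE scaling, 90 without a filter, 56 in the 12 libraries and 13 to 77 without single libraries. The pairing by number was not borne out for tree 1, and a call lost under the replicate block is not read as a weaker effect. The cause of these shifts was not tested. With 3 libraries per season, a p that misses the threshold does not show equal levels.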

Other observations

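One protein domain stood out after the results were seen, and its values are a description. Features with the ABA/WDS induced protein domain, that of the ASR proteins named for abscisic acid, stress and ripening in tomato, were called in 9 of 14 tested, 5 higher and 4 lower in spring, a share of 64.3% against 4.79% of all features. None of the 9 has a best protein match, so name patterns put them in no list. Gene_11 went from 133, 50.8 and 106 CPM in autumn to 369, 872 and 863 CPM in spring (2.86 ± 0.49, adjusted p = 0.0341, edgeR). Gene_43051 went the other way, from 439.5, 281 and 556 CPM to 53.5, 21.8 and 37.9 CPM (-3.49 ± 0.42, adjusted p = 0.0159), and passed with the tree as a block. The seasons did not overlap in either. All 9 had the same sign at Ronda and 7 passed there. Related copies may share reads.

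Other domains had calls mostly in 1 direction. The universal stress protein family, small nucleotide-binding proteins of stressed cells, had 8 of 30 members called, 7 lower and 1 higher in spring. Jacalin-like lectin domains, which bind sugars, had 4 of 17 called, all higher.

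Enzymes outside the lists changed too, chosen after their values were seen. PPH (Gene_60530), which removes the phytol tail in chlorophyll breakdown, fell from 118, 146 and 141 to 60.6, 59.7 and 44.6 CPM (-1.30 ± 0.18, adjusted p = 0.0206). Alcohol dehydrogenase ADH (Gene_3885) fell from 1449, 1301 and 1289 to 583, 539 and 375 CPM (-1.43 ± 0.20). CPT3 (Gene_50439), a cis-prenyltransferase that builds polyprenol chains, rose from 12.4, 9.81 and 8.71 to 199, 211 and 124 CPM (4.11 ± 0.28) and passed with the tree as a block.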
